A study of Homo sapiens with 12 samples.

Results

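The genes described here encode the subunits of PP2A, calcineurin (PP3), PP4, PP5 and PP6, the relatives of PP1 in the PPP family of serine/threonine phosphatases. They were taken as the protein-coding genes whose name begins with PPP2, PPP3, PPP4, PPP5 or PPP6, which gave 34 of the 58233 genes in the table. RNA was sequenced from HCT116 cells, an established human colon carcinoma line. The parental line, HCT116 Tet-OsTIR1, carries a rice TIR1 transgene at AAVS1 that doxycycline (Dox) switches on. The SDS22-degron line, which the labels call HCT116 Tet-OsTIR1 SDS22 WT, was grown from isolated colonies of the parental line. Both lines therefore carry the TIR1 transgene. In the SDS22-degron line the endogenous SDS22 gene (PPP1R7) also ends in a sequence for an auxin-inducible degron and mClover, so that the auxin IAA and TIR1 cause loss of the SDS22 protein. Cells of each line were left untreated or received 2 µg/ml Dox and 500 µM IAA for 48 h (Dox/IAA, the treated cells), and each of the 4 groups had 3 libraries from separate experiments. The comparisons ask whether phosphatases of the family other than PP1, the known partner of SDS22, change at the transcript level when SDS22 is lost.

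PPP phosphatases work as assemblies of few catalytic subunits with many regulatory ones. The PP2A core is a catalytic subunit (PPP2CA or PPP2CB) on a scaffold (PPP2R1A or PPP2R1B), and it takes up a regulatory subunit of the B55, PR72 or B56 family, which chooses substrates. B56 and B55 holoenzymes are known for their part in chromosome attachment and mitotic exit. Calcineurin pairs a catalytic subunit with the calcium-binding subunit PPP3R1 and acts on NFAT transcription factors. PP4 and PP6 have 1 catalytic subunit each, with the PP4R and SAPS regulatory subunits, and PP5 is a single chain that binds HSP90. SDS22 itself is known as a subunit of PP1.

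The sequences shown are the promoters of the gene that passed the test in the interaction of line and treatment (PPP2R5A) and of 2 genes that rose with Dox/IAA in both lines (PPP2R5B and PPP6R2). They are RefSeq promoters of 300 bases on GRCh38.p14, from 250 bases before to 50 after the start, and all are on the plus strand. Capitals mark matches on either strand to GCGTG, the core of the aryl hydrocarbon receptor element, or TTTGAA, the CHR element of cell cycle genes.
PPP2R5A, chr1:212285160-212285459: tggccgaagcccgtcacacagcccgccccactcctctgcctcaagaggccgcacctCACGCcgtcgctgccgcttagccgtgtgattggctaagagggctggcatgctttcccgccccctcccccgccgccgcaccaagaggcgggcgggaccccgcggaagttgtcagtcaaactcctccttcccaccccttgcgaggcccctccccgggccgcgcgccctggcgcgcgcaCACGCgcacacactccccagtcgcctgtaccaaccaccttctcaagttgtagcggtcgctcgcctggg
PPP2R5B, chr11:64924439-64924738: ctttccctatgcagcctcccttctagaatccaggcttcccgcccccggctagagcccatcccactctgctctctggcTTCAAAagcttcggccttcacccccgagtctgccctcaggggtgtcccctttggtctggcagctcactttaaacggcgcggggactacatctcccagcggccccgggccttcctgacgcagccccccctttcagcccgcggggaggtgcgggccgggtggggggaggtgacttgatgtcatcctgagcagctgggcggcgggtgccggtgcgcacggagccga
PPP6R2, chr22:50343077-50343376: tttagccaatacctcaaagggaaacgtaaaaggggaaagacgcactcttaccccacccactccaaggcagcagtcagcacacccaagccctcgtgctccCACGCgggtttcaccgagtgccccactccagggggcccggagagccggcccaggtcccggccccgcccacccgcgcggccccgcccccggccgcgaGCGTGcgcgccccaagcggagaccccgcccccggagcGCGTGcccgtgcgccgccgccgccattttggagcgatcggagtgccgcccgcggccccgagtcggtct
GCGTG (or CACGC on the other strand) is found 2 times in the PPP2R5A promoter and 3 times in that of PPP6R2, and TTTGAA (or TTCAAA) once in that of PPP2R5B. CACGTG, the E-box, is in none of these 3 windows. GCGTG occurs in 36.5% of 35116 RefSeq promoters of this length, TTTGAA in 15.2% and CACGTG in 7.26%, and no matches overlapped in the 3 windows. PPP2R5A has a further RefSeq promoter downstream that is not shown. The PPP2R5B window lies inside the deposited gene, which begins further upstream. Of the 34 genes, 26 had a promoter in the RefSeq table. Among these, a promoter each of PPP2CA and PPP4R3A also holds 3 matches to GCGTG, and neither gene changed past the test with Dox/IAA.

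Of the 34 genes, 30 had enough counts to be tested, among 16657 tested genes in all. The other 4 were PPP2R2B and PPP4R3CP with 0 counts, PPP3R2 with 1 read in total, and PPP5D1 with 3 to 9 reads per library. PPP2R2B, a B55 subunit, and PPP3R2, a calcineurin B subunit, were thus at or near 0 in every library, so B55 transcripts came from PPP2R2A, PPP2R2C and PPP2R2D and calcineurin B transcripts from PPP3R1. Libraries held 12133915 to 14657508 counts, and the 34 genes took 0.252 to 0.298% of them. Of the 7 epithelial markers none was at 0 in all libraries, and their summed level was 1947 to 3055 TMM-normalized CPM, the unit of all levels given here. VIL1 among them was at or near 0, while EPCAM, KRT8 and KRT18 were abundant. Of the 4 leukocyte markers 1 was at 0 in all libraries, and the sum did not pass 0.365 CPM. The PPP1R7 transcript was at 40.6, 45.7 and 45.8 CPM in untreated SDS22-degron cells and at 48.1, 44.4 and 51.1 after Dox/IAA (log2 fold change 0.12, adjusted p = 0.265). The degron acts on the protein, so this transcript does not check its loss.

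Levels of different genes were compared as CPM per kb of the deposited length. Averaged over all 12 libraries, PPP4C was at 40.9 CPM per kb, PPP2R1A at 40.2, PPP3CA at 38.1, PPP2R5D at 33.9 and PPP2CA at 33.8. The order differed between groups: PPP3CA had the highest mean in untreated parental cells (58.3), PPP4C in treated parental cells (47.9) and PPP2R1A in untreated (37.2) and treated (39.6) SDS22-degron cells. The averages over all libraries lie between the 89.3 and 91.3 percentile of all tested genes. PPP2R3B, a PR72-family subunit, was the lowest of the tested genes at 0.455 CPM per kb, with PPP4R4 at 1.24 and PPP2R3A at 2.11. PPP2CA gave 65.3% ± 0.757 (SD, n = 3) of the PP2A catalytic transcripts per kb in untreated and 63.3% ± 0.656 in treated parental cells, and 64.8% ± 0.611 and 62.8% ± 1.27 in untreated and treated SDS22-degron cells. In the same order, PPP2R1A gave 88.7% ± 1.48, 85.7% ± 2.06, 84.8% ± 0.252 and 85.1% ± 1.19 of the scaffold transcripts.

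Of the 10 catalytic and scaffold genes, 0 responded to Dox/IAA differently in the 2 lines past the test. Of all 30 tested genes, 1 passed the test in the interaction, which is the Dox/IAA effect in SDS22-degron cells minus that in parental cells. This is 3.33% of them, where 14.4% of all tested genes passed. The gene was PPP2R5A, which was higher, and 0 of the 30 were lower, where 6.03% of all tested genes were higher and 8.35% lower (edgeR's quasi-likelihood test, Benjamini-Hochberg adjustment over all tested genes, adjusted p under 0.05). A further 5 genes, PPP2R1A, PPP2R2C, PPP3CA, PPP4R1 and PPP6R2, had an unadjusted p under 0.05 and did not pass after adjustment. The median interaction of the 30 genes was -0.0558 on the log2 scale, beside -0.00192 for all tested genes, and their median absolute value was 0.118 beside 0.229. For 24 of the 29 genes that did not pass, the 95% confidence interval of the interaction lay within 0.5 of 0 on the log2 scale. The widest interval was that of the low-abundance gene PPP2R3B, from -0.65 to 0.60. This gene lies where X and Y are identical, so its counts are uncertain.

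The PP2A catalytic genes passed none of the 5 comparisons. PPP2CA, the main catalytic subunit, was at 189, 212 and 172 CPM in untreated parental cells, 191, 208 and 186 in treated parental cells, 194, 194 and 182 in untreated SDS22-degron cells and 204, 184 and 183 in treated SDS22-degron cells. All 4 groups overlapped. Its interaction was -0.028 (SE 0.11, adjusted p = 0.898) on the log2 scale, with an interval from -0.25 to 0.20, and the change within SDS22-degron cells had an interval from -0.16 to 0.16. PPP2CB, the near-identical second catalytic subunit, was at 77.1, 90.8 and 74.3 CPM in untreated and 85.5, 96.5 and 88.4 in treated parental cells, and in SDS22-degron cells at 82.2, 86.7 and 78.7 untreated and at 90.8, 87.96 and 90.3 treated. Its 3 treated SDS22-degron libraries were above the untreated ones, but the difference of 0.12 did not pass (adjusted p = 0.203). The interval of its interaction was -0.27 to 0.19.

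The scaffold PPP2R1A was at 310.0, 328 and 338 CPM in untreated parental cells and 278, 271 and 281 in untreated SDS22-degron cells, and these libraries did not overlap. The difference was -0.23 (SE 0.06, adjusted p = 0.00653). After Dox/IAA it was at 293, 290.5 and 312 in parental and 305, 285 and 294 in SDS22-degron cells, which overlapped. The Dox/IAA effects had opposite signs in the lines, -0.12 in parental and 0.093 in SDS22-degron cells, neither of which passed, and the interaction of 0.22 (SE 0.085, adjusted p = 0.0971) did not pass either. The scaffold PPP2R1B was at 33.1, 44.2 and 34.9 CPM in untreated and 41.5, 52.4 and 40.9 in treated parental cells. Untreated SDS22-degron cells were at 44.8, 44.7 and 44.6 and treated ones at 43.5, 46.5 and 50.2. None of its comparisons passed, and its interaction of -0.20 had an interval from -0.52 to 0.12. With the replicate number as a block its rise with Dox/IAA in parental cells had an adjusted p of 0.0296, against 0.072 without.

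The catalytic subunits of PP5 and PP6 did not pass the interaction test. PPP5C was at 122, 136 and 122 CPM in untreated and 120.4, 136 and 122 in treated parental cells. It was at 127, 119.5 and 125 in untreated SDS22-degron cells and 115, 107 and 106 after Dox/IAA, and the last 3 libraries were below all 9 others. The difference was -0.18 (SE 0.069, adjusted p = 0.0318) within SDS22-degron cells, which is 88.03% of the untreated level, and -0.21 (SE 0.069, adjusted p = 0.0176) between the treated lines. The interaction was -0.18 (SE 0.097, adjusted p = 0.236). The call within SDS22-degron cells was lost under 8 of 23 alternatives: with scaling by library size only (adjusted p = 0.104), by the upper quartile (0.0521) or by full quantiles (0.0819), with no filter (0.0586), and without untreated replicate 1 or 3 or treated replicate 2 or 3 of that line (adjusted p from 0.073 to 0.102). The call between the treated lines was lost under 4 of 23, with full-quantile scaling (adjusted p = 0.0531), without replicate 2 of treated parental cells (adjusted p = 0.135) and without replicate 2 or 3 of treated SDS22-degron cells (adjusted p = 0.0558 and 0.0668). PPP6C was at 81.7, 90.7 and 80.99 CPM in untreated and 77.6, 92.4 and 79.8 in treated parental cells. Untreated SDS22-degron cells were at 89.96, 93.4 and 86.5 and treated ones at 90.7, 83.1 and 87.4. All 4 groups overlapped, and the interval of its interaction was -0.25 to 0.20.

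**Figure D1:**
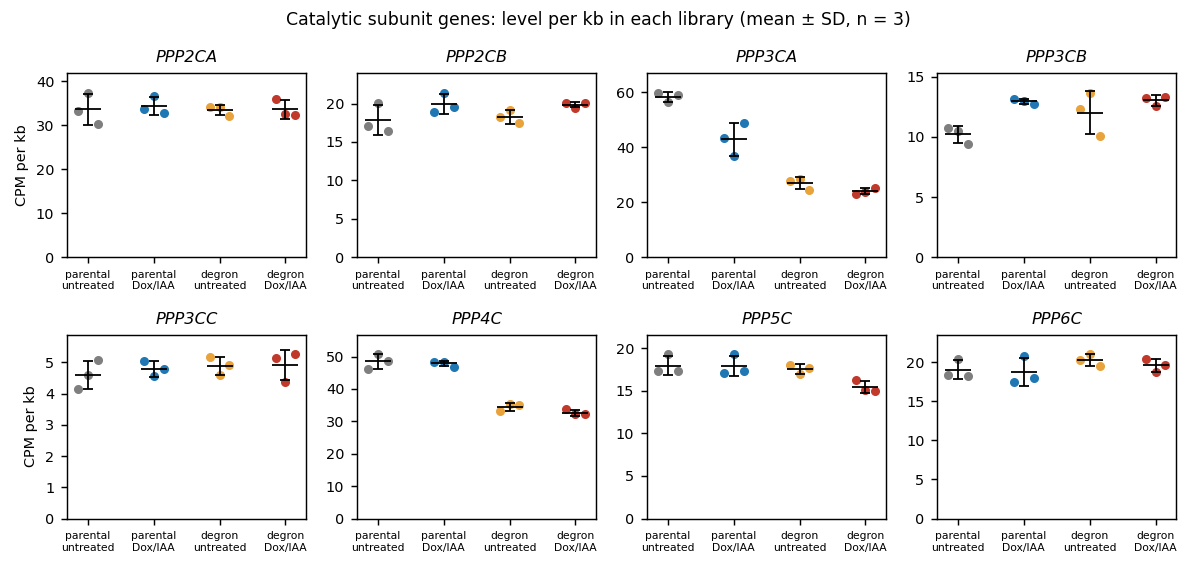
Levels of the 8 catalytic subunit genes in TMM-normalized CPM per kb (vertical axes, from 0) in the 12 libraries, which are grouped by line and treatment on the horizontal axes. Points are libraries, and bars give the mean and SD of 3. PPP3CA and PPP4C are lower in both SDS22-degron groups than in both parental groups, PPP5C is lowest in treated SDS22-degron cells, and the others overlap between most groups.

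PPP4C, the catalytic transcript of PP4, and PPP3CA, one of the catalytic transcripts of calcineurin, differed between the lines whether or not Dox/IAA was given. PPP4C was at 126, 139 and 133 CPM in untreated parental cells and 90.6, 96.7 and 95.7 in untreated SDS22-degron cells. After Dox/IAA it was at 132, 132 and 128 in parental and 92.3, 87.9 and 88.1 in SDS22-degron cells. Every SDS22-degron library was below every parental one. The difference was -0.49 (SE 0.061, adjusted p = 9.24e-06) between the untreated lines, or 71.1% of the parental level, and -0.55 (SE 0.061, adjusted p = 1.03e-06) between the treated lines. Dox/IAA itself gave a change of -0.077 in SDS22-degron cells (adjusted p = 0.308) and -0.02 in parental cells (adjusted p = 0.835), and the interval of the interaction was -0.24 to 0.12.

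PPP3CA, the main calcineurin catalytic subunit here, was at 311, 294 and 307 CPM in untreated parental cells and 225, 192 and 254 after Dox/IAA. In SDS22-degron cells it was at 145, 148 and 128 untreated and 119.5, 124 and 132 after Dox/IAA. Both parental groups were above both SDS22-degron groups and did not overlap with them. The untreated SDS22-degron cells held 46.3% of the parental level, a difference of -1.11 (SE 0.086, adjusted p = 4.05e-08), and the treated lines differed by -0.84 (SE 0.086, adjusted p = 4.51e-07). PPP3CA fell with Dox/IAA in parental cells, with a log2 fold change of -0.44 (SE 0.085, adjusted p = 0.000695), whereas the change within SDS22-degron cells of -0.17 did not pass (adjusted p = 0.116). The interaction was 0.28 (SE 0.12, adjusted p = 0.138) and did not pass, while without replicate 3 of treated parental cells the interaction was 0.38 with an adjusted p of 0.0367.

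PPP3CB, the second calcineurin catalytic subunit, was at 54.8, 53.5 and 47.9 CPM in untreated parental cells and 67.1, 66.2 and 64.8 after Dox/IAA, a rise of 0.34 (SE 0.091, adjusted p = 0.00745). In SDS22-degron cells it was at 62.9, 69.5 and 51.2 untreated and 67.6, 63.9 and 67.8 treated, which overlapped, and the interaction was -0.23 (SE 0.13, adjusted p = 0.25). Without replicate 3 of untreated SDS22-degron cells the interaction was -0.34 with an adjusted p of 0.0491. PPP3CC, described mainly in testis, was at 11.99, 13.3 and 14.7 CPM in untreated and 14.6, 13.2 and 13.8 in treated parental cells. It was at 14.9, 13.3 and 14.3 in untreated and 14.9, 12.6 and 15.2 in treated SDS22-degron cells, and passed no comparison. Per kb, PPP3CA gave 79.7% ± 0.737 (SD, n = 3) of calcineurin catalytic transcripts in untreated parental cells, 70.5% ± 2.96 in treated parental cells, 61.5% ± 0.557 in untreated and 57.2% ± 1.55 in treated SDS22-degron cells. The share of PPP3CB was 14% ± 1.02 in the first of these groups and 31.1% ± 0.929 in the last. PPP3R1, the calcineurin B subunit, was at 80.2 to 103 CPM over all libraries. The difference between treated SDS22-degron and treated parental cells was -0.20, which did not pass (adjusted p = 0.0676) but did with the replicate number as a block (adjusted p = 0.0286).

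Summed over the 8 catalytic genes, the transcript level was 204.5 to 219 CPM per kb in untreated parental cells, 197 to 201 in treated parental cells, 161 to 173 in untreated SDS22-degron cells and 159 to 168 after Dox/IAA. The sum was thus lower in the SDS22-degron line with and without treatment, and the 2 SDS22-degron groups overlapped. Its mean was 210 in untreated parental and 168 in untreated SDS22-degron cells. Between these groups PPP3CA went from 58.3 to 27.0 CPM per kb and PPP4C from 48.6 to 34.5. The lower sum came mainly from these 2 genes. The other catalytic genes did not pass between the untreated lines, and of them PPP5C alone passed between the treated lines. In bulk RNA, fewer cells with a transcript and less of it per cell cannot be told apart.

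Within SDS22-degron cells, 7 of the 30 genes passed the test for Dox/IAA (23.3%), where 51.5% of all tested genes did. Of these, 6 rose, where 26% of all tested genes were higher, and PPP5C fell, where 25.5% were lower. With full-quantile, upper quartile or library size scaling 0 fell and 6 or 7 rose, and with a GC correction 6 rose and 2 fell. The 30 genes had a median change of 0.0171 and a median absolute change of 0.0944, beside 0.00455 and 0.322 for all tested genes. The libraries of the 2 conditions did not overlap for 11 of the 30, where 59.9% of all tested genes did not overlap. For all 23 genes that did not pass, the 95% interval lay within 0.5 of 0. The genes that rose encode regulatory subunits: PPP2R5A, PPP2R5B and PPP2R5C of the B56 family, PPP2R3A and PPP2R3C of the PR72 family, and the SAPS subunit PPP6R2 of PP6.

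**Figure D2:**
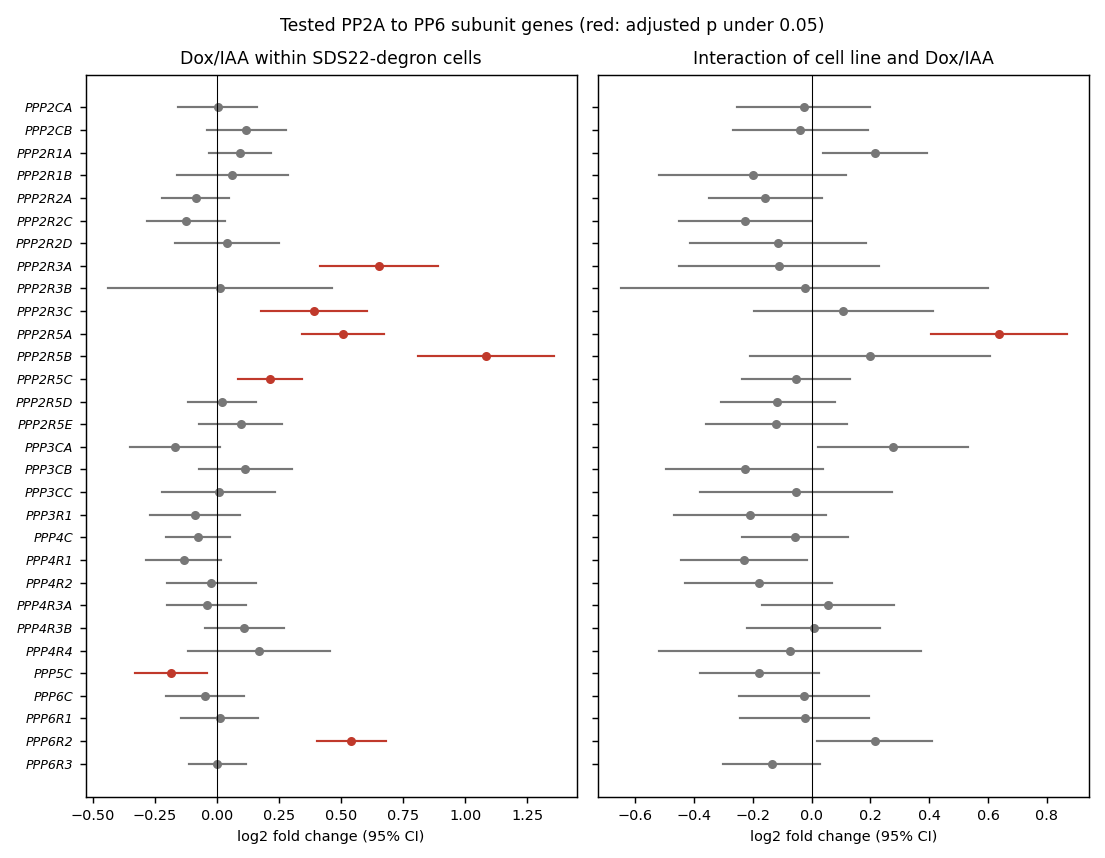
Log2 fold changes (horizontal axes) with 95% confidence intervals for the 30 tested genes (vertical axis): on the left the change with Dox/IAA within SDS22-degron cells, on the right the interaction of line and treatment. Red marks an adjusted p under 0.05, which 7 genes reach on the left and PPP2R5A reaches on the right.

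The B56 gene PPP2R5A (ENSG00000066027, chromosome 1, 212285537 to 212361863, plus strand) had the largest interaction of the 30 genes, and its promoter is the first shown above. It was at 104, 91.9 and 95.9 CPM in untreated parental cells and 84.9, 82.8 and 98.7 after Dox/IAA, and these overlapped. In untreated SDS22-degron cells it was at 67.4, 71.9 and 64.5, below every other library, and after Dox/IAA at 92.6, 94.3 and 103, within the range of the parental libraries. Untreated SDS22-degron cells therefore differed from untreated parental cells by -0.51 (SE 0.079, adjusted p = 8.27e-05), or 70.02% of the parental level. Dox/IAA raised PPP2R5A 1.42-fold in SDS22-degron cells, by 0.51 (SE 0.078, adjusted p = 2.81e-05), and in parental cells the change of -0.13 did not pass (adjusted p = 0.224). The interaction was 0.64 (SE 0.11, adjusted p = 0.000822), and the treated lines did not differ past the test (0.12, adjusted p = 0.211). The interaction had an adjusted p of at most 0.0037 under all 22 alternatives.

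PPP2R5B (ENSG00000068971, chromosome 11, 64917553 to 64934473, plus strand), a B56 gene, had the largest change of the 30 genes within SDS22-degron cells. It was at 9.88, 10.6 and 12.2 CPM in untreated parental cells and 17.8, 19.7 and 22.97 after Dox/IAA. In SDS22-degron cells it was at 17.5, 14.6 and 14.9 untreated and 26.9, 34.2 and 38.7 treated. The 3 treated SDS22-degron libraries were above all 9 others, and untreated parental libraries were below all others. It rose 2.12-fold in SDS22-degron cells, by 1.09 (SE 0.13, adjusted p = 1.69e-06), and 1.85-fold in parental cells, by 0.89 (SE 0.14, adjusted p = 0.000159). The lines differed by 0.52 (SE 0.15, adjusted p = 0.0113) untreated and by 0.72 (SE 0.13, adjusted p = 0.000158) after Dox/IAA. The interaction of 0.20 (SE 0.20, adjusted p = 0.544) did not pass, with an interval from -0.21 to 0.61. PPP2R5B gave 4.26% ± 0.466 (SD, n = 3) of the B56 transcripts per kb in untreated parental cells and 11.1% ± 1.47 in treated SDS22-degron cells.

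Within SDS22-degron cells, the remaining B56 genes changed by less. PPP2R5C was at 111, 109.6 and 113 CPM in untreated and 129.5, 138 and 135 in treated parental cells. Untreated SDS22-degron cells were at 129, 128 and 121 and treated ones at 139.7, 155 and 144. It rose in both lines, by 0.27 in parental and 0.21 in SDS22-degron cells (adjusted p = 0.00287 and 0.00679). PPP2R5D, the most abundant B56 transcript per kb, was at 101.5 to 124 CPM over all libraries and passed no comparison. PPP2R5E was at 60.4 to 82.4 CPM and rose in parental cells by 0.22 (adjusted p = 0.0491), while its change in SDS22-degron cells was 0.096 (adjusted p = 0.331) and its interaction -0.12 (adjusted p = 0.529). The parental call of PPP2R5E did not hold under 12 of 23 alternatives, with an adjusted p of up to 0.209 without replicate 3 of untreated parental cells. Summed per kb, B56 transcripts were at 70.95 to 75.8 in the 2 untreated groups and at 77.55 to 93.4 in the 2 treated ones.

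**Figure D3:**
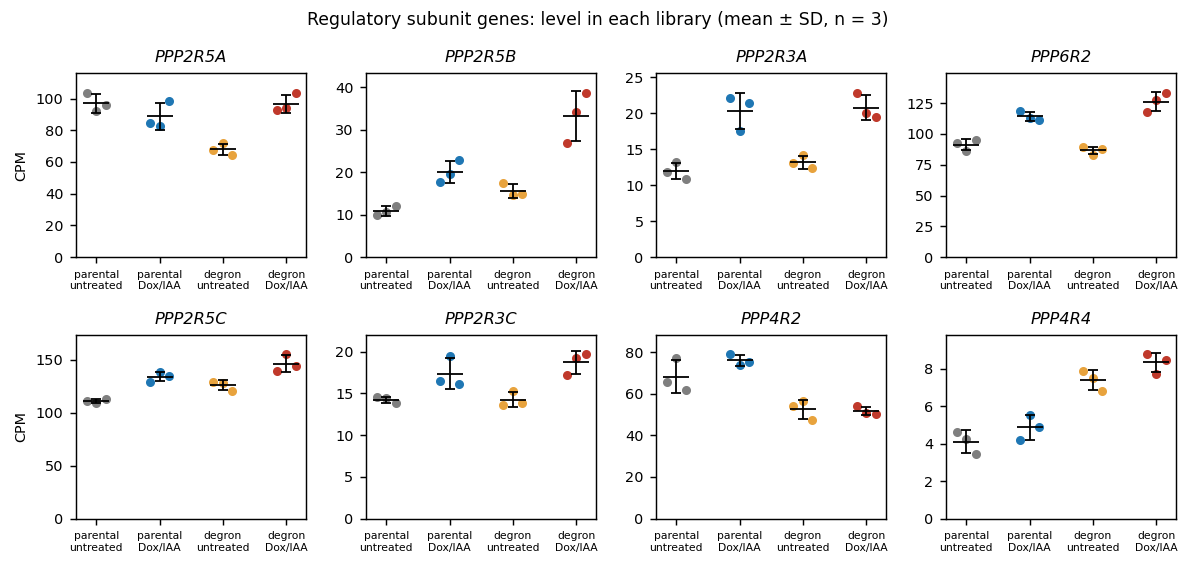
Levels of 8 regulatory subunit genes in TMM-normalized CPM (vertical axes, from 0) in the 12 libraries, grouped by line and treatment on the horizontal axes. Points are libraries, and bars give the mean and SD of 3. PPP2R5A is lowest in untreated SDS22-degron cells, PPP2R5B, PPP2R3A, PPP6R2, PPP2R5C and PPP2R3C are higher after Dox/IAA in both lines, and PPP4R2 and PPP4R4 differ between the lines.

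In parental cells, where SDS22 carries no degron, 8 of the 30 genes (26.7%) passed the test for Dox/IAA, where 31.6% of all tested genes did. Of these, 7 rose and PPP3CA fell, where 15.9% of all tested genes were higher and 15.7% lower. Scaling by library size only gave 11 that rose and 1 that fell. That scaling moved the share of higher genes among all called genes from 50.5 to 64.1%. The libraries did not overlap for 10 of the 30, where 41.3% of all tested genes did not overlap. Called in both lines were 5 genes, PPP2R3A, PPP2R3C, PPP2R5B, PPP2R5C and PPP6R2, which is 5 of the 7 called in SDS22-degron cells and 5 of the 8 called in parental cells. Of all tested genes, 23.4% were called with the same sign in both lines, which is 45.4% of those called in SDS22-degron and 74% of those called in parental cells. All 5 rose in both lines, and none of them passed the interaction test.

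PPP2R3A, a PR72-family subunit that responds to calcium, was at 11.8, 13.2 and 10.9 CPM in untreated and 22.1, 17.5 and 21.4 in treated parental cells. In SDS22-degron cells it was at 13.1, 14.2 and 12.4 untreated and 22.8, 19.98 and 19.5 treated, so that the treated libraries of both lines were above all untreated ones. It rose by 0.76 (SE 0.12, adjusted p = 9.65e-05) in parental and 0.65 (SE 0.11, adjusted p = 9.44e-05) in SDS22-degron cells. The interval of its interaction was -0.45 to 0.23. PPP2R3C rose by 0.28 (adjusted p = 0.045) and 0.39 (adjusted p = 0.00355), and the parental call did not hold under 14 of 23 alternatives, with an adjusted p of up to 0.189 without replicate 2 of treated parental cells.

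PPP6R2, whose promoter is the last shown above, was at 92.6, 86.3 and 94.8 CPM in untreated and 119, 113 and 112 in treated parental cells. In SDS22-degron cells it was at 89.2, 83.3 and 87.5 untreated and 118, 128 and 133 treated, and no treated library overlapped with an untreated one. The rise was 0.33 (SE 0.066, adjusted p = 0.00108) in parental and 0.54 (SE 0.066, adjusted p = 1.98e-06) in SDS22-degron cells. The interaction of 0.21 (SE 0.093, adjusted p = 0.136) did not pass. PPP6R1 was at 144 to 176 CPM over all libraries and passed no comparison, and PPP6R3, at 154 to 185.5 CPM, was higher in untreated SDS22-degron than in untreated parental cells by 0.22 (SE 0.056, adjusted p = 0.00657). PPP6R2 overlaps SBF1, a gene at 128 CPM on the opposite strand, and PPP2R3C overlaps FAM177A1 (45 CPM). The kit keeps the strand, but the strand setting of the counting is not given in the sources used here. The 5 fibroblast markers, of which 3 were at 0 in all libraries, summed to 9.96 to 13.6 and 13.8 to 15.8 CPM in the untreated parental and SDS22-degron cells and to 17.2 to 22.9 and 21.3 to 31.8 after Dox/IAA, nearly all from COL1A1. The 3 at 0 in every library were COL1A2, DCN and LUM.

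**Figure D4:**
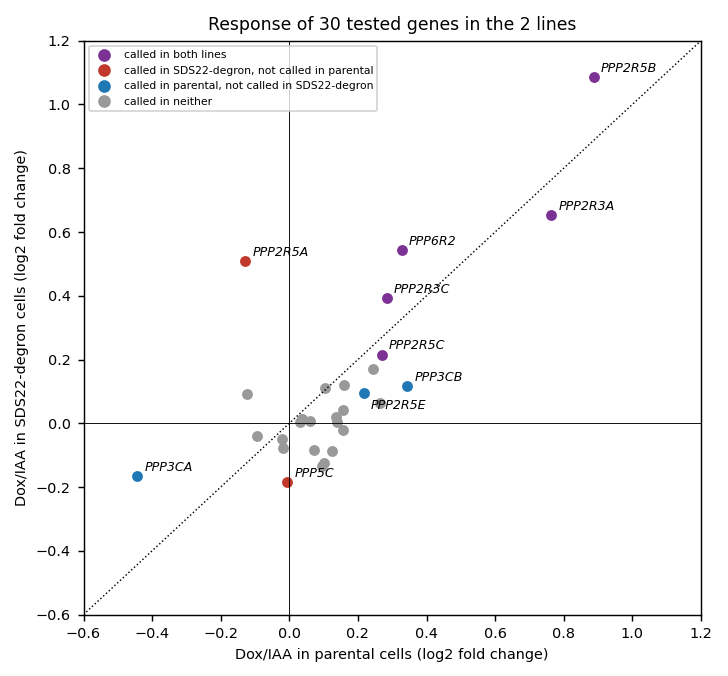
Log2 fold change with Dox/IAA in parental cells (horizontal axis) against that in SDS22-degron cells (vertical axis) for the 30 tested genes, with a dotted line where both are equal. Purple points are called in both lines, and PPP2R5A, which is called in SDS22-degron cells and passed the interaction test, lies above the line.

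Between the treated lines, 6 of the 30 genes passed the test (20%), where 44.9% of all tested genes did. PPP2R5B and PPP4R4 were higher and PPP3CA, PPP4C, PPP4R2 and PPP5C lower in SDS22-degron cells, where 21.8% of all tested genes were higher and 23.1% lower. The split of 2 higher and 4 lower became 6 and 3 with full-quantile scaling, 5 and 4 with upper quartile scaling and 4 and 4 with a GC correction. With the replicate number as a block 8 passed, the added genes being PPP3R1 and PPP4R3B (adjusted p = 0.0192). Libraries did not overlap for 11 of the 30, where 52.9% of all tested genes did not overlap. Of the 6 genes, 5 showed a called difference of the same sign before treatment, PPP5C being the exception. Of all tested genes, 18.3% were called with the same sign in both line comparisons, which is 40.7% of those called between the treated and 64.9% of those called between the untreated lines. These comparisons use different libraries of the same lines.

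Between the untreated lines, 10 of the 30 genes passed the test (33.3%), where 28.2% of all tested genes did. PPP2R2C, PPP2R5B, PPP2R5C, PPP4R4 and PPP6R3 were higher in SDS22-degron cells, where 13.2% of all tested genes were higher. PPP2R1A, PPP2R5A, PPP3CA, PPP4C and PPP4R2 were lower, where 15% of all tested genes were lower. The split of 5 and 5 became 10 higher and 5 lower with upper quartile scaling and 8 and 5 with library size or full-quantile scaling. Libraries did not overlap for 13 of the 30, where 43.5% of all tested genes did not overlap.

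Of the PP4 regulatory subunits, PPP4R2 and PPP4R4 differed between the lines with and without treatment. PPP4R2 was at 65.7, 77.01 and 61.9 CPM in untreated parental cells and 54.02, 56.3 and 47.3 in untreated SDS22-degron cells, and after Dox/IAA at 78.95, 73.8 and 75.4 in parental and 54.1, 50.7 and 50.4 in SDS22-degron cells. The lines did not overlap, with differences of -0.38 (SE 0.084, adjusted p = 0.00255) untreated and -0.56 (SE 0.084, adjusted p = 3.32e-05) after Dox/IAA. PPP4R4, a subunit of low abundance, was at 4.64, 4.22 and 3.46 CPM in untreated and 4.20, 5.53 and 4.88 in treated parental cells. It was at 7.87, 7.50 and 6.83 in untreated and 8.77, 7.74 and 8.48 in treated SDS22-degron cells, which were higher than their parental counterparts by 0.85 (SE 0.15, adjusted p = 0.00039) untreated and 0.78 (SE 0.15, adjusted p = 0.000282) after Dox/IAA. The lines did not overlap. PPP4R1 was at 68.5 to 85.7 CPM, PPP4R3A at 107 to 129 and PPP4R3B at 87.3 to 119 over all libraries, and none of these passed a comparison. PPP4R3B, but neither of the others, passed under 8 of 23 alternatives between the treated lines, 7 between the untreated lines and 1 within SDS22-degron cells. Of the B55 genes, PPP2R2C was higher in untreated SDS22-degron cells by 0.25 (adjusted p = 0.0181), a call lost under 5 of 23 alternatives with an adjusted p of up to 0.0748 without replicate 1 of untreated SDS22-degron cells. PPP2R2A (112 to 133 CPM) and PPP2R2D (19.75 to 29.98 CPM) passed no comparison. Between the untreated lines they differed by 0.15 (adjusted p = 0.0959) and 0.26 (adjusted p = 0.0623), and each passed there under 4 of 23 alternatives. PPP2R3B was at 3.20 to 5.49 CPM and passed none.

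Genes near PPP4C and PPP4R2 had medians below 0 in the same comparison. PPP4C lies on chromosome 16 (30075978 to 30085377, plus strand, GRCh38), and the 104 tested genes within 2.5 Mb on each side had a median log2 difference of -0.392 between the untreated lines. All 726 tested genes of chromosome 16 had a median of -0.298. PPP4R2 lies on chromosome 3 (72996785 to 73069199, plus strand), where the 15 neighbours had a median of -0.199 and all 939 tested genes of the chromosome one of -0.272. PPP2R3A lies on chromosome 3 too, and its 31 neighbours had a median of -0.265. Its own difference was 0.14 and did not pass (adjusted p = 0.416). PPP3CA lies on chromosome 4 (101023409 to 101348278, minus strand), and its 24 neighbours had a median of 0.0281, far from its own -1.11. The medians were 0.203 for the 39 neighbours of PPP4R4 and -0.0906 for the 34 of PPP2R5A. All 1659 tested genes of chromosome 1, which holds PPP2R5A, had a median of -0.134. The part of the chromosomes in these differences was not tested. PPP3CA overlaps FLJ20021, a noncoding gene at 7.36 CPM on the opposite strand.

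**Figure D5:**
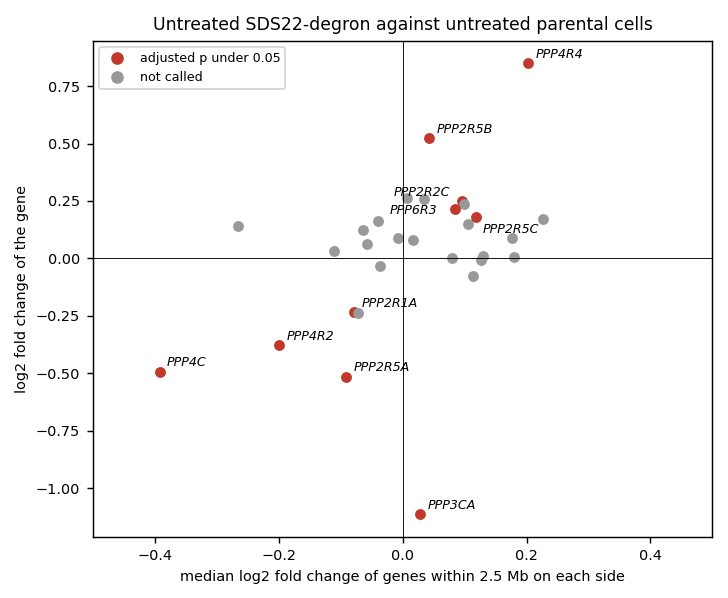
Log2 difference between untreated SDS22-degron and untreated parental cells for each tested gene (vertical axis) against the median of the same difference over the tested genes within 2.5 Mb on each side (horizontal axis). Red marks an adjusted p under 0.05. PPP4C and PPP4R2 lie at low values on both axes, whereas PPP3CA is low beside neighbours with a median near 0. PPP2R3A, which is not called and not labelled, has neighbours with a median of -0.265 and lies above 0 on the vertical axis.

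Further genes of these phosphatases, mostly regulators, partners and targets, with the ankyrin subunits of PP6, the striatins and PP7, were taken as a list of 49 genes in the table, 46 of them tested. Their shares stand beside the same 14.4, 51.5 and 31.6% of all tested genes. In the interaction 10 passed (21.7%), 1 higher and 9 lower, and the median of the list was -0.0421. Within SDS22-degron cells 31 passed (16 higher, 15 lower, 67.4%), and within parental cells 20 (15 higher, 5 lower, 43.5%), each above the share of the 30 genes described here. The list was chosen with earlier results of these data known and holds genes of cell division such as SGO1, SGO2 and BUB1B. Its shares are therefore no result about partners of these phosphatases as a class. Of the 6 genes that bring PP2A to chromosomes or other complexes 4 were lower in the interaction, of the 14 of PP2A maturation and inhibition 2, of the 3 PP5 partners 2 and of the 3 ankyrin subunits of PP6 1. None of the 9 calcineurin regulators and targets passed in the interaction. Within SDS22-degron cells 5 of these 9 were higher and 2 lower, and within parental cells 5 were higher and 0 lower.

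The lowest of the list in the interaction were SGO2, KIAA1524, BUB1B and SGO1. SGO2, a shugoshin that holds PP2A at centromeres, was at 70.7, 77.2 and 49.95 CPM in untreated and 29.97, 26.7 and 20.9 in treated SDS22-degron cells, which did not overlap, and its interaction was -1.49 (SE 0.28, adjusted p = 0.0015). KIAA1524, now called CIP2A, which encodes an inhibitor of PP2A, was at 49.1, 53.03 and 49.04 CPM untreated and 21.5, 20.6 and 17.4 treated, with an interaction of -1.36 (SE 0.17, adjusted p = 5.28e-05). BUB1B, whose product BUBR1 binds B56 subunits at kinetochores, was at 119, 121 and 119 CPM untreated and 47.5, 40.3 and 39.3 treated, with an interaction of -1.34 (SE 0.15, adjusted p = 2.5e-05). SGO1 was at 17.9, 15.3 and 15.5 CPM untreated and 6.86, 5.34 and 7.41 treated, with an interaction of -1.28 (SE 0.21, adjusted p = 0.000529). In parental cells the changes of these 4 genes lay between -0.16 and 0.14. A set of 6 proliferation markers summed to 2096 to 2119 CPM in untreated and 771 to 913 in treated SDS22-degron cells, and to 1799 to 2118 and 1488 to 2005 in the parental groups. The part of proliferation in the lower levels of these 4 genes was not tested. None of the PP1 catalytic genes passed the interaction test. PPP1CC changed by -0.42 within SDS22-degron cells (adjusted p = 0.000239) and by -0.16 in parental cells (adjusted p = 0.126), with an interaction of -0.25 (adjusted p = 0.14). Between the treated lines PPP1CC differed by -0.21 (adjusted p = 0.041), while PPP1CA and PPP1CB did not pass there. In parental cells the change of PPP1CA was 0.22 (adjusted p = 0.00837), and its interaction was -0.15 (adjusted p = 0.264), while that of PPP1CB was 0.027 (adjusted p = 0.929).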

How the data were processed

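Raw read counts per gene were deposited for 12 poly-A selected, stranded libraries, with GC content in percent, length and position of each gene. The submitters' processing notes name cutadapt 1.15, Bowtie2 2.3.3.1, STAR 2.5.2b, SAMtools 1.5, featureCounts 1.5.3 and GRCh38, without role or order, and the annotation release is not given in the sources used here. No column was left unmapped (0). Samples were grouped by label. Genes were filtered with filterByExpr (minimum count 10), normalized by TMM and fitted in edgeR 4.0.16 (R 4.3.3) with 4 groups. Quasi-likelihood F tests were run, p was adjusted over the 16657 tested genes (Benjamini-Hochberg), and an adjusted p under 0.05 was called. SE and 95% intervals were derived from the F statistic. On the log2 scale the median SE was 0.11 within SDS22-degron cells and 0.156 in the interaction. CPM values are TMM-normalized, per kb of deposited length where stated.

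The members and lists were chosen with earlier results of these data known. All 34 members are accounted for by name. Catalytic and scaffold genes, and members called in the interaction or in the same direction both within SDS22-degron cells and between the treated lines, are given with all values. Other members with values were chosen after their values were seen. Of the other list, the 4 highest and the 4 lowest of those called in the interaction were to be named. The 4 lowest are given, and 1 higher gene is not reported here. Alternatives tried were DESeq2 1.42.0, the likelihood ratio test, other scalings and filters, a GC correction, a replicate block, fits on only the groups compared, and each library left out. The quasi-likelihood test was tried on simulated counts, with changes planted in treated SDS22-degron cells. Of 100 genes with a planted log2 change of 0.5, 30 were called in the interaction and 59 within SDS22-degron cells. Of 100 with a change of 1, 70 and 85 were called. Of the genes with no planted change, 12 were called in the interaction and 13 within SDS22-degron cells. No other genes among the 16657 simulated were changed. In the data, 14.4% of all tested genes passed in the interaction and 51.5% within SDS22-degron cells. The adjustment was thus stricter in the simulation, and the shares it recovered are no measure of recovery in the data. Sums, shares, neighbour medians and correlations were not simulated. Same-numbered libraries come from the same experiment number, and their deviations from the group means correlated over 0.1 in 7 of 18 pairs. These included all 3 pairs of untreated and treated parental cells (0.124 to 0.246) and of the treated lines (0.101 to 0.138). These comparisons were therefore judged to be paired, but their reported values come from the fit without a replicate block unless the block is named. With the replicate number as a block, 9 instead of 8 members were called within parental cells and 8 instead of 6 between the treated lines.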

Additional observations from a re-analysis of the deposited data

Results flagged for a closer look

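These genes responded to Dox/IAA differently in the 2 lines by the interaction test (quasi-likelihood in edgeR, p adjusted over all tested genes), and no explanation was tested. PPP2R5A had an interaction of 0.64 on the log2 scale (adjusted p = 0.000822), being higher in 3 of 3 Dox/IAA-treated SDS22-degron libraries than in the untreated ones. Untreated SDS22-degron cells differed from untreated parental cells by -0.51 (adjusted p = 8.27e-05). The treated lines did not differ past the test (0.12, adjusted p = 0.211). SGO2 had an interaction of -1.49 (adjusted p = 0.0015), KIAA1524 of -1.36 (adjusted p = 5.28e-05), BUB1B of -1.34 (adjusted p = 2.5e-05) and SGO1 of -1.28 (adjusted p = 0.000529), each lower in 3 of 3 treated SDS22-degron libraries than in the untreated ones. Groups of 3 libraries were not searched for outlying samples.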

How the results depend on the processing

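No called value of the 30 genes changed direction under an alternative. PPP5C, PPP2R3C, PPP2R5E, PPP2R2C, PPP2R5C and PPP2R5B each lost a call under at least 1 alternative, of which PPP2R5B (untreated lines) lost it without replicate 1 of untreated parental cells (adjusted p = 0.0503) or of untreated SDS22-degron cells (0.0628), and PPP2R5C (untreated lines) under 7 of 23 alternatives. A call was gained at least once for 23 of 150 values (78 times under all alternatives). Without replicate 2 of untreated parental cells, PPP2CB, PPP2R1B and PPP4R2 were called within parental cells (adjusted p from 0.00869 to 0.0232) and PPP2R1B, PPP2R5E and PPP4R3B between the untreated lines (0.00765 to 0.0461), and without replicate 3 of untreated SDS22-degron cells PPP3CB and PPP4R3B were called between the untreated lines (0.00458 and 0.0334). Of 3420 values under an alternative, 192 changed sign, all of them called neither there nor in the reported fit and none beyond 0.125 on the log2 scale. The interaction count of 1 became 2 without replicate 3 of treated parental cells, which adds PPP3CA, and 2 without replicate 3 of untreated SDS22-degron cells, which adds PPP3CB, and was 1 under all other alternatives. With each library left out, the counts were 5 to 8 between the treated lines, 6 to 7 within SDS22-degron cells, 6 to 10 within parental cells and 7 to 12 between the untreated lines. Under the other alternatives they were 6 to 9, 6 to 10, 6 to 12 and 9 to 15. For the list of other genes the interaction count of 10 ranged from 6 (without replicate 3 of untreated parental cells) to 15, the count within SDS22-degron cells from 25 to 34 and that within parental cells from 15 to 21. The causes were not tested.

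With the replicate number as a block, the counts were 1 in the interaction, 8 between the treated lines, 7 within SDS22-degron cells, 9 within parental cells and 14 between the untreated lines, and 13, 33 and 21 for the other list in the interaction and within SDS22-degron and parental cells. The reported values of the 2 comparisons judged to be paired come from the fit without a block. In these comparisons the block changed no call other than those of PPP2R1B, PPP3R1 and PPP4R3B. Elsewhere same-numbered libraries correlated by -0.0569 to 0.118 and the block is given for its counts alone. For the untreated lines these correlations were 0.0584, 0.0983 and 0.118, so the fit without a block may ignore a weak pairing there. Low-abundance genes such as PPP2R3B had wide intervals, so that small changes were not detectable at this depth, and changes in protein level or activity were not measured.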
